A study of Solanum lycopersicum with 8 samples.

Results

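The genes described here are 8 tomato genes at the entry of phenylpropanoid metabolism, out of 34725 genes in the files. They are 5 copies of phenylalanine ammonia-lyase (PAL) and 3 copies of 4-coumarate CoA ligase (4CL), taken by their gene IDs. These IDs were listed with earlier results of the same data known. All 8 had enough counts to be tested. PAL removes the amino group of phenylalanine to give cinnamate, which cinnamate 4-hydroxylase (C4H) turns into p-coumarate. 4CL then joins p-coumarate to coenzyme A. The product feeds flavonols and anthocyanins on one side, and lignin units and chlorogenate on the other. In tomato, gland cells of leaf hairs store flavonols beside their terpenes, while lignin is laid down in the vessels of the leaf.

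RNA was sequenced from Solanum lycopersicum, cultivar M82, in gland cells isolated from type VI trichomes (leaf hairs with a glandular head) and in leaves whose trichomes had been scraped off by hand. Each tissue has 4 libraries, from 4 collections of plants grown for 5 weeks at 28 °C and 250 µE of light. The genotype label is af mutant for every leaf library and complemented line #4 for every trichome library, so tissue and labelled genotype cannot be told apart. The labels' protocols take the leaves from the plants of the trichome preparation, which conflicts with these genotype labels, and the complemented line is 1 line. As background, af (anthocyanin free) is a tomato mutant of the chalcone isomerase CHI1.

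Gene totals ran from 19209754 to 34941715 counts in leaf and from 24596280 to 26514416 in trichome. CHI1 had 283, 272, 120.3 and 99.1 CPM (read counts scaled to library size with TMM factors) in leaf replicates 1 to 4 and 1420, 1685, 1497 and 1530 CPM in trichome replicates 1 to 4. The 5 type VI gland markers summed to between 75.7 and 166 CPM in leaf and between 9448 and 16594 CPM in trichome. The 4 mesophyll markers summed to between 16856 and 24913 CPM in leaf and between 1263 and 1720 in trichome. No marker list was at 0 in either tissue. Leaf replicate 4 stood apart for several of the genes below, and values that it moves most are given with and without it.

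Of the 5 PAL copies 2 rose in trichome and 3 were not called, while all 3 4CL copies fell. A gene was called where edgeR's quasi-likelihood test, adjusted over 20409 tested genes, gave a p below 0.05. That makes 5 of 8 called. Of all tested genes 72.4% were called: 33.9% of all tested genes were higher and 38.5% lower in trichome. The number of calls is therefore no result about these genes. The 5 PAL copies together held 1380, 959, 932 and 2255 CPM in leaf replicates 1 to 4 and 2011, 2642, 1772 and 4071 CPM in trichome replicates 1 to 4. The trichome library was the higher one in all 4 collections, but leaf replicate 4 lay above trichome replicates 1 and 3, so the groups overlapped. The trichome mean was 1.90 times the leaf mean, and 2.41 times without leaf replicate 4. The 3 4CL copies together held 438, 214, 263 and 972 CPM in leaf and 53.2, 55.1, 55.3 and 58.5 CPM in trichome. The leaf mean was 8.50 times the trichome mean, or 5.49 times without leaf replicate 4, and the groups did not overlap. This direction holds for the 3 copies: with 6 further IDs listed as 4CL-like, the summed level was 663 ± 348 CPM in leaf and 847 ± 239 CPM in trichome (SD, n = 4 each), with overlapping groups. Counts of the 5 PAL copies were 3.37 ± 0.902 times those of the 3 4CL copies in leaf and 46.8 ± 16.5 times in trichome (mean ± SD of the ratio per library, n = 4 each). This ratio likewise holds for the 3 copies only and leaves out the 4CL-like IDs. In such bulk samples, fewer cells of a type and less RNA per cell cannot be told apart.

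**Figure D1:**
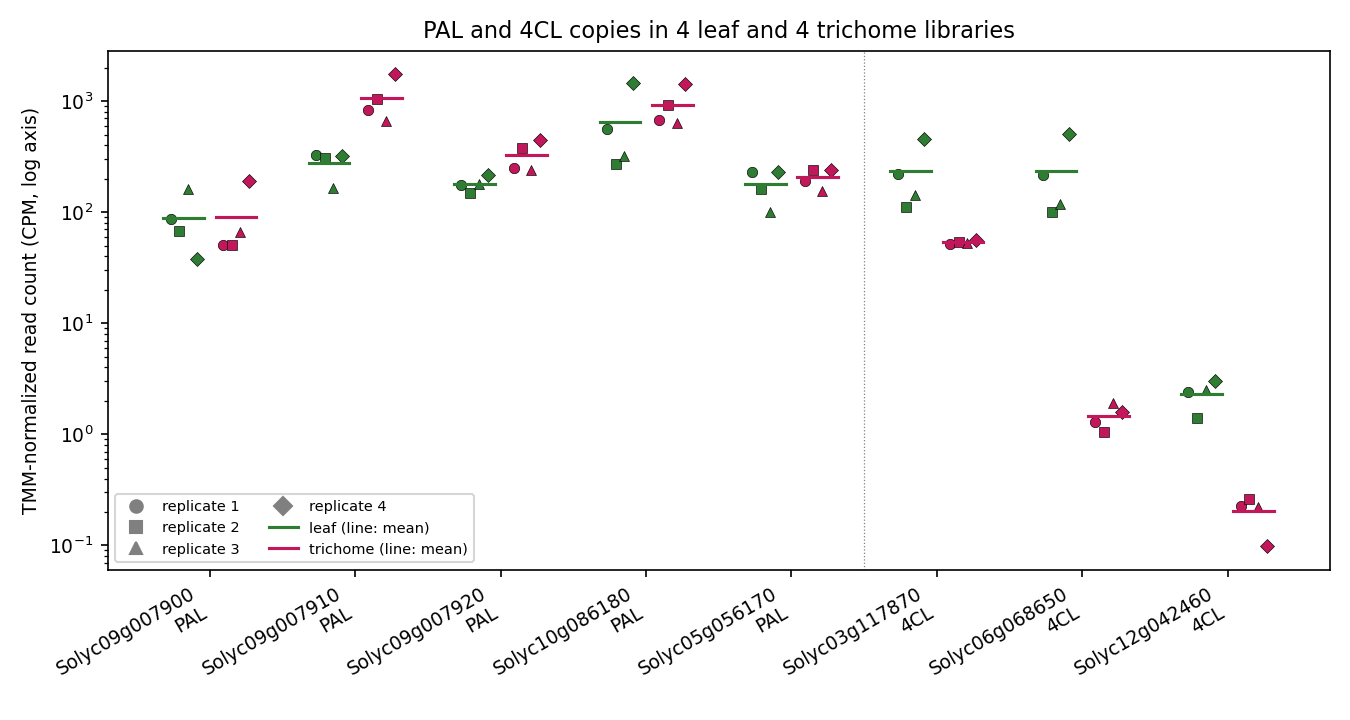
Level of each PAL and 4CL copy (TMM-normalized CPM, log axis) in 4 leaf libraries (green) and 4 trichome libraries (magenta), with one marker shape per replicate and a line at the group mean. Solyc09g007910 and Solyc09g007920 are higher in every trichome library, the 4CL copies are lower there, and leaf replicate 4 reaches 1449 CPM for Solyc10g086180.

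Of the PAL copies, Solyc09g007900, Solyc09g007910 and Solyc09g007920 carry neighbouring IDs on chromosome 9. The RefSeq gene table (assembly SLM_r2.1) places PAL5 and PAL3 next to each other in that region, and which of these IDs carries which name is not settled. Solyc05g056170 lies at the relative position of PAL2 on chromosome 5, and Solyc10g086180, on chromosome 10, has no symbol in the table. Reads that aligned to more than 1 place were not assigned to genes, and they took 2.87% to 4.44% of all counted reads in leaf and 4.64% to 6.70% in trichome. How similar the copies are was not examined, so the split of reads among them is uncertain. Counts were not divided by transcript length, because no lengths of the files' gene models were used here. The shares below are therefore shares of reads. A change in the ratio of one copy to another between tissues does not depend on their lengths.

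Solyc09g007910 was the PAL copy that rose most. It had 328, 308, 165 and 319 CPM in leaf replicates 1 to 4, and 832, 1045, 667 and 1748 CPM in trichome replicates 1 to 4. Every trichome library lay above every leaf library, and trichome replicate 4 was the highest. The mean went from 280.0 ± 76.9 CPM (leaf) to 1073 ± 476 CPM (trichome; SD, n = 4). On the log2 scale it rose by 1.94 (SE 0.36; adjusted p = 9.09e-04, edgeR). Across the 20 alternative fits it ranged from 1.59 to 2.12 and kept its call in each.

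Solyc09g007920, the next copy on chromosome 9, had 175 (replicate 1), 149, 179.6 and 217 CPM in leaf and 253, 380.1, 242 and 448 CPM in trichome. The groups did not overlap, but leaf replicate 4 and trichome replicate 3 were close. It rose by 0.88 on the log2 scale (SE 0.24; adjusted p = 0.00839, edgeR). Without collection 2 its call was lost (log2 0.72, adjusted p = 0.0656), which leaves 1 PAL copy called higher. Non-overlapping groups are frequent here: they were found for 5 of the 8 genes and for 68.3% of all tested genes (31.5% with trichome above leaf, 36.8% below).

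Solyc10g086180 took the most PAL reads in 3 of 4 leaf libraries. It had 560.1, 271, 324 and 1449 CPM in leaf and 684, 925, 642 and 1444 CPM in trichome. The groups overlapped through leaf replicate 4, which matched the highest trichome library, and 3 of 4 collections were higher in trichome. The log2 fold change was 0.50 (SE 0.54; adjusted p = 0.417, edgeR), so no difference passed the test. Without leaf replicate 4 it was 1.26 (adjusted p = 0.0160), and without collection 4 it was 0.95 (adjusted p = 0.0281). PAL copies called higher then numbered 3 without leaf replicate 4.

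The other PAL copies did not pass the test. PAL2 (Solyc05g056170) had 229, 163, 101 and 232 CPM in leaf and 193, 241, 155 and 238 CPM in trichome (log2 fold change 0.19, SE 0.28; adjusted p = 0.556, edgeR). The groups lay over each other almost completely. Solyc09g007900 had 87.6, 67.4, 162 and 38.0 CPM in leaf and 50.6, 51.2, 66.0 and 193 CPM in trichome (log2 fold change 0.02, SE 0.54; adjusted p = 0.975, edgeR). Its highest leaf library was replicate 3 and its highest trichome library replicate 4, and only in collection 4 was trichome higher. Without collection 4 it was called lower in trichome (log2 -0.93, adjusted p = 0.0318).

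Of the chromosome 9 copies, Solyc09g007900 and Solyc09g007910 stood at opposite extremes in 1 leaf library. In leaf replicate 3 Solyc09g007900 was at its leaf maximum, 162 CPM, and Solyc09g007910 at its leaf minimum, 165 CPM. Their sum ran from 327 to 415 CPM over the 4 leaf libraries, a narrower relative range than that of either copy alone. In trichome the sum ran from 733 to 1941 CPM.

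The makeup of the PAL reads differed between the tissues in 2 of the 5 copies. Solyc09g007910 took 23.8%, 32.1%, 17.7% and 14.1% of PAL counts in leaf replicates 1 to 4, and 41.4%, 39.5%, 37.6% and 42.9% in trichome replicates 1 to 4. Its share went from 21.9% ± 7.88 to 40.4% ± 2.29 (two-sided p = 0.0286 by exact permutation, n = 4 each). The share of PAL2 (Solyc05g056170) was lower in trichome, at 13.7% ± 3.62 in leaf and 8.33% ± 1.68 in trichome (two-sided p = 0.0286 by exact permutation, n = 4 each). Its level was not lower there (mean 181 CPM in leaf, 207 CPM in trichome), while the PAL total was larger. Solyc10g086180 took 42.0% ± 15.7 in leaf and 35.2% ± 0.947 in trichome (exact permutation p = 0.686), with 64.3% in leaf replicate 4 against 28.3% to 40.6% in the other leaf libraries. Solyc09g007920 took 14.3% ± 4.12 and 12.9% ± 1.47 (exact permutation p = 0.571), and Solyc09g007900 took 8.12% ± 6.64 and 3.23% ± 1.25 (exact permutation p = 0.171). Without leaf replicate 4, the difference for Solyc09g007900 was -7.03 percentage points, trichome minus leaf (exact permutation p = 0.0286, over fewer splits). The remaining leaf shares spread widely, at 6.35%, 7.02% and 17.4%. Over the 8 shares compared, PAL and 4CL, these p-values are unadjusted, and shares of the same total depend on each other. The smallest p that 70 splits can give is 0.0286; with labels exchanged within the 4 collections it is 0.125, and no share could pass.

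By mean share, Solyc09g007910 and Solyc10g086180 took the most PAL reads in both tissues, although in leaf replicate 3 Solyc09g007920 (19.3%) lay above Solyc09g007910 (17.7%). The ratio of Solyc09g007910 to Solyc10g086180 was 1.22, 1.13, 1.04 and 1.21 in trichome replicates 1 to 4. In leaf it was 0.585, 1.14, 0.509 and 0.220, so leaf replicate 2 had the trichome ratio and the other leaf libraries lay below it. The 3 chromosome 9 copies together took 55.0% to 58.7% of PAL counts in trichome and 25.4% to 54.7% in leaf. The other 9 IDs listed as PAL, on chromosomes 3, 9, 10 and among unplaced genes, added 0.0190% ± 0.0116 to the PAL counts in trichome and 0.207% ± 0.0559 in leaf. None of their counts exceeded 108 in any library, 3 had no count in any library, and 1 was tested. That one, Solyc00g282510, fell by 2.90 on the log2 scale (edgeR adjusted p = 0.00508). The copies listed for chromosome 3 reached at most 3.30 CPM, for Solyc03g036470 in leaf replicate 4.

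**Figure D2:**
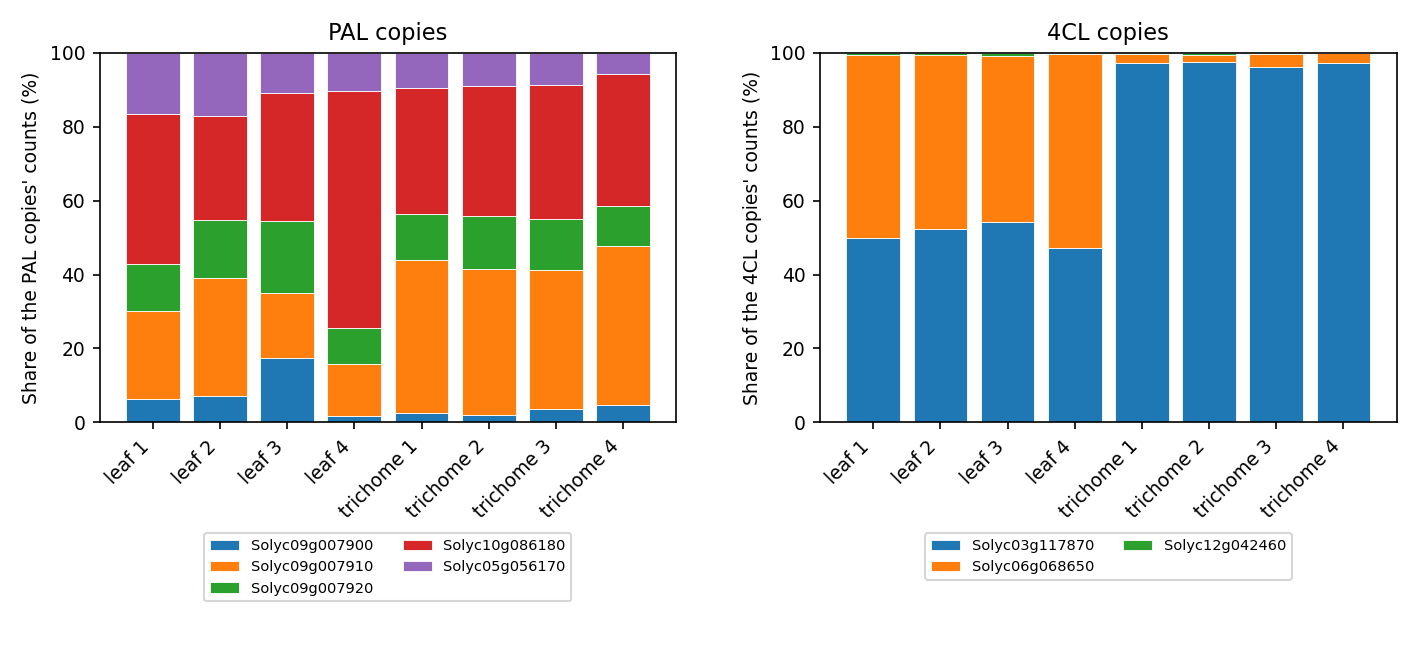
Share of each copy in the counts of the 5 PAL copies (left) and of the 3 4CL copies (right), in percent, for each of the 8 libraries. Solyc09g007910 takes 37.6% to 42.9% of PAL counts in trichome, and Solyc06g068650 goes from 44.9% to 52.4% of 4CL counts in leaf to 1.91% to 3.46% in trichome.

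Within the 3 4CL copies, leaf reads came about equally from Solyc03g117870 and Solyc06g068650, and trichome reads almost entirely from Solyc03g117870. The level of Solyc03g117870 was itself lower in trichome (mean 233 CPM in leaf, 53.9 CPM in trichome). Of the wider sum with the 4CL-like IDs, described below, it took 6.66% ± 1.43 in trichome. Solyc03g117870 lies at the relative position of the gene named 4CL in the reference table; Solyc06g068650 and Solyc12g042460 are listed as 4CL and have no symbol there. Solyc03g117870 took 51.0% ± 2.98 of 4CL counts in leaf and 97.0% ± 0.625 in trichome (two-sided p = 0.0286 by exact permutation, n = 4 each). Solyc06g068650 took 48.4% ± 3.24 and 2.62% ± 0.651 (two-sided p = 0.0286 by exact permutation, n = 4 each). Solyc12g042460 took 0.616% ± 0.266 and 0.368% ± 0.137 (exact permutation p = 0.171), which without leaf replicate 4 was lower in trichome (exact permutation p = 0.0286).

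Solyc06g068650 showed the largest fall of the 8 genes. It had 217, 100.2, 118 and 509 CPM in leaf replicates 1 to 4, and 1.28, 1.05, 1.92 and 1.58 CPM in trichome replicates 1 to 4. In trichome that was between 24 and 52 reads per library, or 0.617% of the leaf mean (1.00% without leaf replicate 4). On the log2 scale the change was -7.33 (SE 0.64; adjusted p = 9.37e-06, edgeR), with a range of -7.72 to -6.63 over the 20 alternatives.

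Solyc03g117870 fell less. It had 219, 112, 143 and 460.1 CPM in leaf and 51.6, 53.8, 53.2 and 56.8 CPM in trichome. The trichome libraries lay close together while the leaf libraries spread, and the groups did not overlap. The log2 fold change was -2.12 (SE 0.41; adjusted p = 0.00126, edgeR), and it lay between -2.36 and -1.55 over the 20 alternatives. Solyc12g042460 was low throughout, at 2.42, 1.40, 2.50 and 3.00 CPM in leaf and 0.226, 0.263, 0.221 and 0.0985 CPM in trichome. It fell by 3.48 on the log2 scale (SE 0.39; adjusted p = 4.39e-05, edgeR), which rests on 20 reads over the 4 trichome libraries. A count of 3 stood for 0.111 to 0.148 CPM there.

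Genes listed as 4CL-like, relatives of 4CL in the family of acyl-CoA ligases whose substrates may differ, went both ways. Of 6 such IDs 5 were tested, 4 rose and 1 fell, where 33.9% of all tested genes rose and 38.5% fell. Solyc03g097030 rose from 93.4 ± 42.9 to 587 ± 205 CPM (log2 2.65, SE 0.39, edgeR adjusted p = 2.38e-04). Solyc06g035960 rose from 23.4 ± 5.42 to 115 ± 21.7 CPM and Solyc11g069050 from 43.3 ± 10.1 to 79.4 ± 20.5 CPM. Solyc12g094520 fell from 28.8 ± 14.5 to 2.18 ± 0.878 CPM. When their counts are added to those of the 3 4CL copies, the copies took 66.1% ± 13.4 of the sum in leaf and 6.87% ± 1.51 in trichome, while Solyc03g097030 alone took 68.4% ± 4.71 in trichome against 17.3% ± 11.3 in leaf. In that wider sum the share of Solyc03g117870 fell, by 26.8 percentage points (exact two-sided permutation p = 0.0286), in place of the rise within the 3 copies. These are listed names, and whether the proteins act on p-coumarate was not tested.

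The steps around PAL and 4CL are described by list, and their counts stand beside 33.9% of all tested genes that rose and 38.5% that fell, with no test of a list. Of 13 genes of the shikimate pathway and phenylalanine synthesis, which supply the substrate of PAL, 10 rose, 2 fell and 1 was not called (median log2 fold change 0.83; the median of all tested genes was -0.09). Isoenzymes diverged here as well. Of the genes listed as DAHP synthase, the entry enzyme, Solyc04g074480 rose from 96.8 ± 24.3 to 274 ± 68.7 CPM and Solyc11g009080 fell from 884 ± 164 to 472 ± 82.6 CPM. Among the EPSP synthases listed, Solyc01g091190 rose from 67.0 ± 14.6 to 368 ± 51.3 CPM and Solyc05g050980 fell from 32.6 ± 7.91 to 4.14 ± 1.88 CPM. A chorismate synthase, Solyc04g049350, rose from 97.2 ± 26.0 to 315 ± 89.4 CPM. The 2 IDs listed as C4H, the step between PAL and 4CL, were near silent: Solyc06g082530 had 0.982 ± 0.326 CPM in leaf and 0.714 ± 0.120 in trichome (log2 -0.45, edgeR adjusted p = 0.241), and Solyc05g047530 had at most 9 reads in a library and was not tested. Whether another ID holds the C4H reads was not examined.

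All 7 genes of the flavonol list rose (median log2 fold change 3.73). They include the regulator MYB12 and CHI1 (Solyc05g010320, log2 2.99). CHI1 is the gene mutated in af, the genotype label of every leaf library. For it, as for all genes here, tissue and labelled genotype cannot be told apart. CHS1 (Solyc09g091510), chalcone synthase, which uses the product of 4CL, rose from 182 ± 152 to 7493 ± 3140 CPM and CHS2 (Solyc05g053550) from 436 ± 274 to 4235 ± 1192 CPM. F3H (Solyc02g083860) rose by 4.07 and a gene listed as flavonol synthase (Solyc11g013110) by 3.73 on the log2 scale. Of 11 genes for hydroxycinnamate esters and lignin units, 9 fell and 2 rose (median log2 fold change -3.68). CAD (Solyc01g107590), which makes lignin alcohols, fell from 167 ± 57.6 to 12.7 ± 5.17 CPM, and HQT (Solyc07g005760), the chlorogenate enzyme, from 152 ± 36.3 to 27.4 ± 12.4 CPM. A cinnamoyl-CoA reductase, Solyc03g097170, was one of the 2 that rose, from 54.9 ± 7.38 to 163 ± 52.4 CPM. The other was C3'H (Solyc01g096670), which hydroxylates coumaroyl esters, from 38.9 ± 23.4 to 120.0 ± 44.2 CPM. Of the 3 anthocyanin genes, DFR (Solyc02g085020) and ANS (Solyc08g080040) fell and F3'5'H (Solyc11g066580) was not called. Leaf replicate 2 held 95.7 CPM of DFR and 100.3 CPM of ANS, and at most 14.6 and 6.03 CPM were in the other leaf libraries. ANS lost its call in 10 of 18 alternatives: without leaf replicate 2 (log2 -0.41, adjusted p = 0.431), when collection 2 was dropped (log2 -0.51), when any trichome library or collection 1 or 3 was dropped (log2 -3.57 to -3.19, near the -3.24 of all libraries), in limma-voom, and when collections were fitted as a block (log2 -1.35, adjusted p = 0.223). DFR lost it in limma-voom (log2 -3.55, adjusted p = 0.252).

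**Figure D3:**
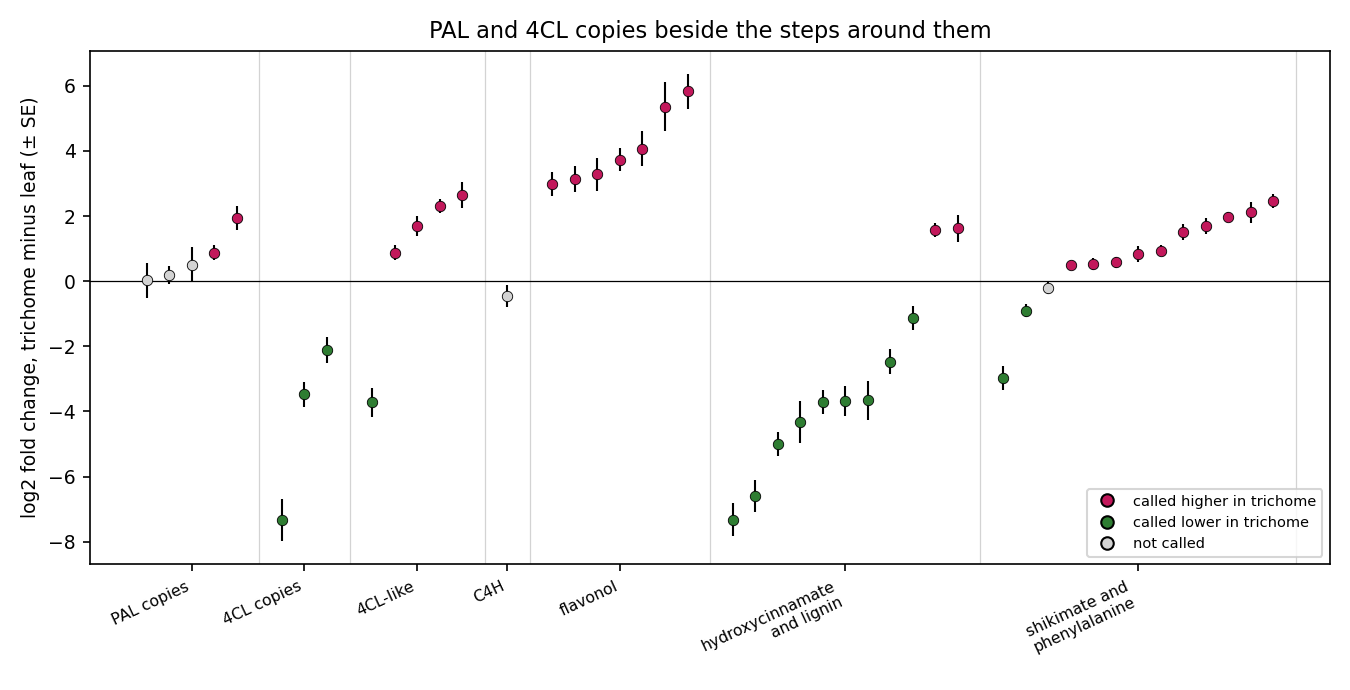
Log2 fold change (trichome minus leaf, ± SE) of each tested gene in 7 groups, coloured by its call in edgeR's test. The PAL copies lie between 0.02 and 1.94 and the 4CL copies between -7.33 and -2.12. Beside them, 7 of 7 flavonol genes rose, CHI1 among them, and 9 of 11 hydroxycinnamate and lignin genes fell.

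Vascular markers moved the same way as the 4CL copies, and so did mesophyll markers and 38.5% of all tested genes. All 4 vascular genes fell, from between 410 and 581 CPM summed in leaf to between 66.0 and 82.2 CPM in trichome. All 4 mesophyll genes fell as well (median log2 fold change -4.14, against -6.69 for the vascular list). SUT1 (Solyc11g017010), the phloem sucrose transporter, had 184 ± 60.6 and 1.73 ± 0.497 CPM, and genes listed as secondary-wall cellulose synthases CESA4 (Solyc09g072820) and CESA8 (Solyc02g072240) had 0.0788 ± 0.0705 and 0.369 ± 0.190 CPM in trichome. CESA7 (Solyc12g056580) kept 74.6 ± 7.52 CPM there. The part of vascular or mesophyll cells in the fall of the 4CL copies was not tested. Markers of tip cells of type I and IV trichomes rose in all 5 genes, where 33.9% of all tested genes rose. These markers summed to between 0.642 and 12.5 CPM in leaf and between 99.3 and 147 CPM in trichome. The part of such tip cells in the PAL levels of trichome was not tested either. Of 3 genes of the cuticle, which mark other epidermis, 1 rose and 2 fell.

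Within leaf, some copies were set apart in replicate 4. Solyc10g086180 was 4.47 times, Solyc06g068650 4.31 times and Solyc03g117870 3.23 times the median of leaf replicates 1 to 3. So 3 of the 8 genes reached at least 2-fold there, against 6.27% of all tested genes. The other PAL copies did not share it: Solyc09g007910 was at 1.03 times, Solyc09g007920 at 1.24 times, PAL2 (Solyc05g056170) at 1.42 times and Solyc09g007900 at 0.434 times that median. Of the 11 hydroxycinnamate and lignin genes 4 reached 2-fold, led by HCT (Solyc03g117600), which joins hydroxycinnamates to shikimate. HCT had 155.6 CPM in replicate 4 against 26.2 to 50.01 CPM in the other leaf libraries. Solyc01g107910, also among the 4, had 121 CPM in leaf replicate 1 as well as in replicate 4, so replicate 4 did not stand alone for it. The vascular markers did not reach 2-fold, at 0 of 4. Their summed level in replicate 4, 498 CPM, lay inside the range of the other leaf libraries.

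**Figure D4:**
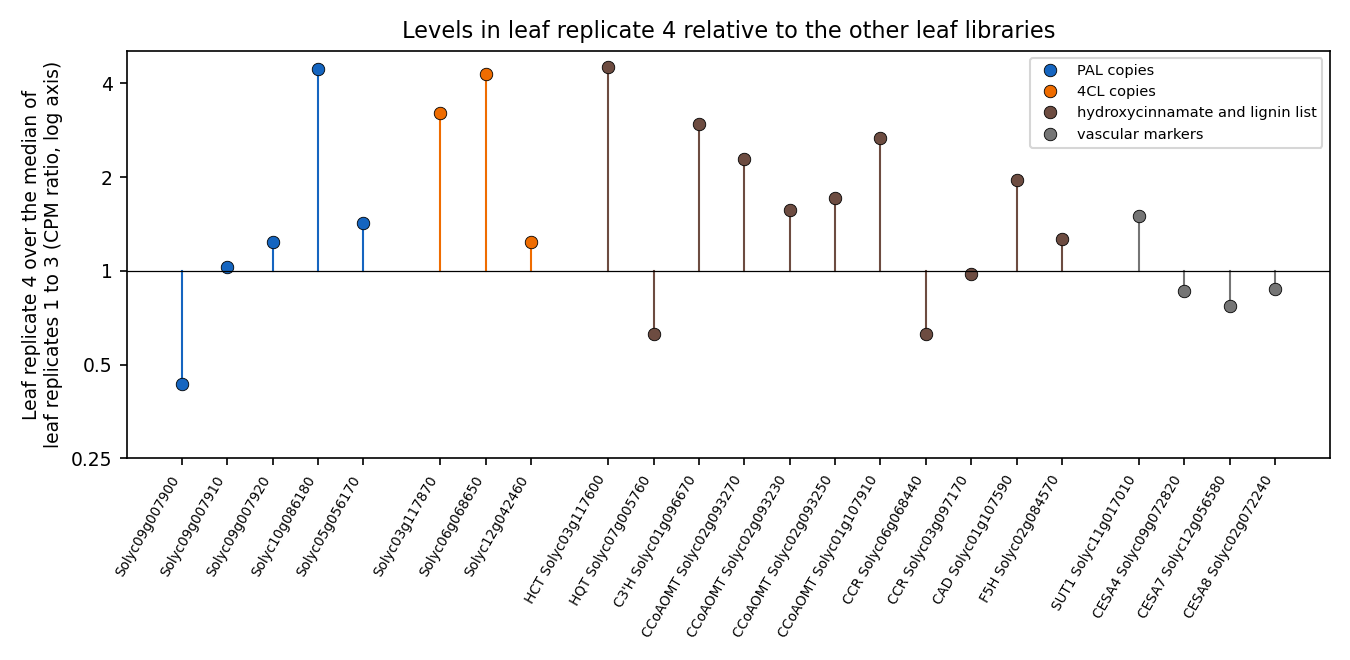
Level in leaf replicate 4 divided by the median of leaf replicates 1 to 3 (CPM ratio, log axis) for the PAL copies, the 4CL copies, the 11 hydroxycinnamate and lignin genes and the 4 vascular markers. Solyc10g086180, 2 of the 3 4CL copies and HCT lie above 3, whereas Solyc09g007910 lies at 1.03 and the cellulose synthases below 1.

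Within trichome, replicate 4 was the highest library for 4 of the 5 PAL copies, at 3.77 times the median of the others for Solyc09g007900, 2.11 times for Solyc10g086180, 2.10 times for Solyc09g007910 and 1.77 times for Solyc09g007920. PAL2 was at 1.24 times and highest in trichome replicate 2. Of the 4CL copies none reached 2-fold there, and Solyc03g117870 was at 1.07 times. Of all tested genes 32.9% were highest in that library and 4.83% were at least 2-fold over the median. It also had the lowest TMM factor, 0.774. With library size alone, the PAL copies summed to 3150 CPM there against 1813 to 2453 CPM in the other trichome libraries.

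Across the 8 libraries the leading copies had different neighbours in pattern, by Pearson's r of log2(CPM + 0.5). The libraries fall into 2 tissues, so a tissue difference alone gives a high r, and r is a description. For Solyc09g007910, the leading PAL copy of trichome, the closest of 20408 genes were Solyc08g074270 (r = 0.995) and Solyc11g066890 (r = 0.993), and within the pathway lists an arogenate dehydratase, Solyc06g074530 (r = 0.970), which makes phenylalanine, and the cinnamoyl-CoA reductase Solyc03g097170 (r = 0.962). Solyc06g068650 leads the leaf 4CL copies by mean CPM (236 against 233 for Solyc03g117870) through leaf replicate 4 alone; in leaf replicates 1 to 3 Solyc03g117870 was higher. For Solyc06g068650 the closest were Solyc08g082130 and Solyc07g045300 (r = 0.998 each), and within the lists a caffeoyl-CoA O-methyltransferase, Solyc01g107910 (r = 0.992), and Solyc12g042460 (r = 0.981). For Solyc03g117870 the closest in the lists was HCT (r = 0.982), and for Solyc10g086180 it was SK (Solyc04g051860), shikimate kinase (r = 0.851).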

How the data were processed

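The authors deposited raw HTSeq counts of reads per gene, 1 file per library. Trimmomatic, TopHat2, SAMtools and HTSeq are named, without versions, per the submitters' processing notes. For build, annotation, settings and strand: not given in the sources used here, so antisense or overlapping genes cannot be told apart. HTSeq's 5 summary lines (12.7% to 14.5% of counted reads in leaf, 18.4% to 24.4% in trichome) were left out.

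All 8 libraries entered one model in edgeR 4.0.16 (R 4.3.3) with TMM factors, its filterByExpr filter, the quasi-likelihood F test and no block; p-values were adjusted after Benjamini and Hochberg over 20409 genes. The SE, the log2 difference divided by the root of F, is approximate. The script was tested on simulated counts with few changed genes and the same spread setting for every gene. That differs from these data, so the simulation does not check error rates here. Levels are CPM with TMM factors. Shares of counts were compared by exact two-sided permutation over 70 splits. Replicates are separate collections per the labels.

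The 8 genes and the gene lists were chosen with earlier results of these data known. All 8 are described, with every listed C4H and, for each other pathway list, up to 4 genes highest in mean CPM; further list genes in the text were chosen after their values were seen. No ID in the files matched the reference table (0 of 34725); of 80 listed IDs, 28 names could be compared by chromosome and relative position (tolerance 5 percentage points) and 27 passed. The failing one, a cinnamoyl-CoA reductase compared with CCR2, is called by its enzyme alone. Other names rest on the lists. The labels give both tissues of a collection the same sampling number, which was taken to pair them. Deviations from the group means correlated at 0.0842, 0.142, 0.213 and 0.178 for same-numbered libraries. For differently numbered libraries the values ran from -0.238 to 0.139, so the ranges overlap. One gene of the hydroxycinnamate and lignin list is not reported here. Promoter motifs and levels per coding length were planned and not run, because no sequences were used here.

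Each fit was repeated under DESeq2 1.42.0, under limma-voom (limma 3.58.1), with RLE or upper-quartile scaling, with unscaled library sizes, with the filter dropped or raised to 5 CPM, with collections as a block, and without single libraries or collections.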

Additional observations from a re-analysis of the deposited data

Results flagged for a closer look

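Among 87 sets of 4 libraries examined, 6 held a library far from the other 3 by Dixon's criterion, which chance gives for about 1 set in 20. Of the PAL copies, Solyc09g007900 was highest in trichome replicate 4, at 193 CPM against 50.6 to 66.0 CPM in the other trichome libraries. Solyc09g007910 was lowest in leaf replicate 3, at 165 CPM against 308 to 328 CPM in the other leaf libraries. The anthocyanin genes were all highest in leaf replicate 2, where ANS (Solyc08g080040) had 100.3 CPM against at most 6.03, DFR (Solyc02g085020) 95.7 CPM against at most 14.6, and F3'5'H (Solyc11g066580) 40.8 CPM against at most 4.85 CPM in the other leaf libraries. A chorismate synthase, Solyc04g049350, was highest in leaf replicate 4, at 136 CPM against 83.6 to 85.5 CPM.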

How the results depend on the processing

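Solyc09g007910, Solyc03g117870 and Solyc06g068650 kept direction and call in all 20 alternatives, and Solyc12g042460 in the 19 that tested it (the 5 CPM filter drops it). Solyc09g007900, near 0, turned negative with RLE (-0.010), upper-quartile factors (-0.11), library size alone (-0.32), the 5 CPM filter (-0.083), DESeq2 (-0.0095), limma-voom (-0.025) and the replicate block (-0.13), and ranged from -0.93 to 0.60 when libraries or collections were left out. PAL2 (Solyc05g056170) was at -0.019 with library size alone and from -0.028 to 0.35 in leave-outs. Library size alone shifted the median of all genes by -0.21, and relative to that shift these values were -0.10 and 0.20. Leave-outs gave 0.69 to 1.01 for Solyc09g007920, 0.19 to 1.26 for Solyc10g086180, 1 to 3 PAL copies called higher and 0 to 1 called lower. F3'5'H (Solyc11g066580) was at -0.027 with RLE, -0.10 with upper-quartile factors, -0.31 with library size alone, -0.090 with the 5 CPM filter, -0.026 with DESeq2, 2.25 with limma-voom, 1.59 with the replicate block and from -0.39 to 2.29 in leave-outs. Of the other IDs listed as PAL, 3 were called lower with no filter, 0 with the 5 CPM filter, which tests none, and 1 to 2 in leave-outs. Of the anthocyanin genes, 0 were called lower with the 5 CPM filter, which tests neither DFR nor ANS, and 0 with limma-voom. DESeq2 called 1 lower and gave no adjusted p for ANS. The replicate block called 1 lower, and leave-outs 1 to 2. The replicate block changed no call among the 8 PAL and 4CL genes.

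With tissue labels exchanged within collections (the replicate block for shares), the differences of 18.4 percentage points for Solyc09g007910, -5.36 for PAL2 (Solyc05g056170), 46.1 for Solyc03g117870 and -45.8 for Solyc06g068650 had p = 0.125 in the exact permutation, the smallest it can give. With the wider families as denominator the share of Solyc03g117870 reversed to -26.8 and that of Solyc12g042460 was -0.362 (p = 0.0286, exact permutation, each); these follow from the larger denominator. Leave-outs of shares ranged from -7.03 to -1.79 for Solyc09g007900, 15.8 to 21.8 for Solyc09g007910, -2.94 to 0.276 for Solyc09g007920, -11.4 to 0.635 for Solyc10g086180, -6.48 to -4.25 for PAL2, 44.8 to 47.1 for Solyc03g117870, -46.97 to -44.5 for Solyc06g068650 and -0.351 to -0.137 for Solyc12g042460. Without any single trichome library, the shares of Solyc09g007910 (p = 0.0571, exact permutation) and PAL2 (p = 0.0857 to 0.114, exact permutation) missed the threshold. Fewer splits were then available, and leaf and trichome shares still did not overlap for either copy. For Solyc09g007910 they were at least 37.6% in trichome and at most 32.1% in leaf. For PAL2 they were at most 9.58% in trichome and at least 10.3% in leaf. Apart from the cases named with a construction, the cause was not tested. Shares per coding length and promoter motifs were not run, because no lengths or sequences were used here. Low depth limits Solyc12g042460, the minor PAL IDs and both C4H IDs.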
